A study of Mus musculus with 3 samples.

Results

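The regions described here are stretches of accessible chromatin that were strong in EV replicates 1 and 3 and had no peak in the library labelled EV replicate 2. Overlapping peaks of replicates 1 and 3 were merged. A region on chromosomes 1 to 19 was kept where each library had a peak whose highest summit reached a height of 1 or more, height being the pileup of transposase cuts per 1e+06 tags. Of 60337 such strong regions, 3220 overlapped no peak of the library labelled EV replicate 2, a share of 5.34% (exact 95% binomial interval 5.16 to 5.52%). The mirrored rule, strong in the other 2 libraries and without a peak in the third, found 285 of 50365 regions (0.566%) for replicate 1 and 143 of 50375 (0.284%) for replicate 3. With no height limit, 12.2% of 96542 shared regions lacked a peak in the library labelled EV replicate 2. The mirrored shares were then 4.49% of 88350 for replicate 1 and 3.40% of 87214 for replicate 3. Of peaks, 52.3% reached a height of 1 in the library labelled EV replicate 2, 60.8% in replicate 1 and 59.3% in replicate 3. The mirrored sets are thus held to a stricter limit. All 3 libraries entered the choice of the regions, so these shares, and the heights in replicates 1 and 3, are descriptions without a test. Intervals and limits given for shares cover counting error only.

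All 3 libraries carry the same labels: wild-type mice, retro-orbital injection of AAV8-TBG-Cre (EV), liver hepatocytes harvested 4 days later. The virus of the series' other arm encodes HA-tagged Sox4 together with Cre, and its libraries were not analysed here. The TBG promoter is active in hepatocytes, and nuclei came from sorted cells whose sort marker the labels do not name. Coordinates are those of mm10. Whether each library is from its own animal is not stated, and differences among them may be technical.

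ATAC-seq marks accessible DNA through the insertion of adapters by Tn5 transposase. In hepatocytes, promoters and enhancers bound by factors such as HNF4A, FOXA and C/EBP proteins form narrow accessible sites. Genes transcribed at very high rates, among them those for urea cycle enzymes and plasma proteins, can also be accessible over much of their bodies, which raises the local background against which a peak is called.

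The regions were mostly away from promoters, and most of the few promoters among them held few CpG, like promoters without a strong region. In the RefSeq promoter table (GRCm38.p6, 250 bases before to 50 after a start site, for 79.6% of the autosomal protein-coding genes), 28 windows of 23 genes had one of the regions as the tallest strong region over them, of 20085 windows. Their median CpG count was 4, against 22 in the 11046 windows under a strong region that also had a peak in the library labelled EV replicate 2, and 4 in the 9011 windows with no strong region. The median GC content of these 3 sets was 50.3%, 62% and 49.7%. The windows of 5 genes are shown because these genes are on the lists used below. They are those of Tgif1, a homeodomain repressor that acts in TGF-beta signalling (chr17:70849741-70850040, minus strand, the taller of its 2 windows), Insig2, whose protein holds the cholesterol-sensing SREBP machinery in the endoplasmic reticulum (chr1:121332540-121332839, minus strand), Isg15, an interferon-induced ubiquitin-like protein (chr4:156200769-156201068, minus strand), Sult2a8, a liver sulfotransferase (chr7:14446538-14446837, minus strand), and Hsd3b5, a steroid dehydrogenase with male-biased expression in mouse liver (chr3:98645485-98645784, minus strand). The sequences run 5′ to 3′ along the gene, and capitals mark matches, on either strand, to the motifs searched.
Tgif1: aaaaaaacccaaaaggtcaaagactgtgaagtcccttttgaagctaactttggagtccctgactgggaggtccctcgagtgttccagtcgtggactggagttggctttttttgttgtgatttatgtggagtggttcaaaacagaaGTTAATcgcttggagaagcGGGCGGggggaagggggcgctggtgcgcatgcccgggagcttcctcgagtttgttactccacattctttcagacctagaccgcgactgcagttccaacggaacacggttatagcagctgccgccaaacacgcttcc
Insig2: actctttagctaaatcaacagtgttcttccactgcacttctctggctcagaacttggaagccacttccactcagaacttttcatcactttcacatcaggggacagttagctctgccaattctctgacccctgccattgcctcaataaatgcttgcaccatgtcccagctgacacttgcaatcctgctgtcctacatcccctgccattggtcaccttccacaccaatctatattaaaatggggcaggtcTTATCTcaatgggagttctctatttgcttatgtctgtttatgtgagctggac
Isg15: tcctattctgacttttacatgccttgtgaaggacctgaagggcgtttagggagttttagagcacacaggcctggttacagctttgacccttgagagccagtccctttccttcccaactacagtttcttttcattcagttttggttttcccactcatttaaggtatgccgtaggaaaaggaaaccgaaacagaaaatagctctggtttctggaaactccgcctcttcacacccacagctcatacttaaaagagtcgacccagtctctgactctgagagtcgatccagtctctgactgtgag
Sult2a8: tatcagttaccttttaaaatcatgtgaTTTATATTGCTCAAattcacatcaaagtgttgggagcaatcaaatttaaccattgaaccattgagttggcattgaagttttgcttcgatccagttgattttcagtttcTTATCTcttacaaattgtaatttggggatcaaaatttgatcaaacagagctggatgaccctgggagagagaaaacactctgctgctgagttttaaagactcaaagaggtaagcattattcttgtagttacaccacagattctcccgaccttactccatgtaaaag
Hsd3b5: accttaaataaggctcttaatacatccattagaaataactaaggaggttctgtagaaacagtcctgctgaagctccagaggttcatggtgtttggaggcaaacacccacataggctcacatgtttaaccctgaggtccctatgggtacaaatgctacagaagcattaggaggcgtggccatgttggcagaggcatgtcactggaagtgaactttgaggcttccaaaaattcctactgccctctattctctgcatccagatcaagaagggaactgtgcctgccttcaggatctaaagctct
The capitals in Tgif1 are an HNF1 motif (GTTAAT) and a GC box (GGGCGG), and this window held 15 CpG. The capitals in Insig2 are a GATA motif (AGATAA, here TTATCT). Those in Sult2a8 are a TATA motif (TATAAA, here TTTATA) that adjoins a C/EBP motif (TTGCNNAA), and a GATA motif further on. The windows of Isg15 and Hsd3b5 held none of the 10 motifs searched. GATA motifs lay in 5 of the 28 windows, in 9.57% of all windows and in 14.3% of those with no strong region. For TATA motifs these values were 4 of 28, 12.7% and 20.5%, for C/EBP motifs 4 of 28, 10.3% and 13.02%, and for GC boxes 6 of 28, 47.0% and 22.3%. Some of the 28 windows overlap within a gene, so they are not separate counts. At the Tgif1 window the height was 5.22 in replicate 1 and 5.64 in replicate 3, 184 bp from the nearest peak of the library labelled EV replicate 2. At the Insig2 window the height was 5.09 in replicate 1 and 4.46 in replicate 3, and at Isg15 it was 3.28 and 3.17. At Sult2a8 it was 2.02 and 1.82, and at Hsd3b5 1.12 and 1.47. The nearest peak of the library labelled EV replicate 2 lay 2590 bp from the Insig2 region, 1579 bp from Isg15, 6386 bp from Sult2a8 and 13664 bp from Hsd3b5.

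The library in which the regions lack a peak went against its label at Sox4. The gene's highest summit had a height of 1.33 in replicate 1, 21.9 in the library labelled EV replicate 2 and 1.14 in replicate 3. That library is therefore named by its label throughout. None of the 6 strong regions within 50 kb of Sox4 was among the 3220. The 3 libraries had 96066404, 116147036 and 117450440 tags and 108997, 119230 and 110455 peaks in the order of their replicate numbers, so the one without the peaks was neither the shallowest nor the shortest list. Its median peak was lower, at a height of 1.08 against 1.38 and 1.34. All 6 hepatocyte markers examined had a gene-end peak in each library. Of 5 markers each, cholangiocyte genes had a gene-end peak at 3, 4 and 3, endothelial genes at 1 in each, stellate genes at 2 in each, and Kupffer and lymphocyte genes at 0, 1 and 0. In whole-population data, fewer cells of a type and less access per cell cannot be told apart.

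The regions were of moderate height and the tallest sites in the genome were not among them. Heights had a median of 1.86 in replicate 1 (10th to 90th percentile 1.197 to 3.39) and 1.78 in replicate 3 (1.15 to 3.35). The ratio of the height in replicate 1 to that in replicate 3 had a median of 1.03, with 10th and 90th percentiles of 0.830 and 1.31. The share of strong regions without a peak in the library labelled EV replicate 2 fell from 10.04% in the lowest class of the lower height, which starts at 1, through 6.29% at 2 to 3, to 0.380% at 5 to 8. None of the 2925 strong regions with a height of 8 or more in both libraries lacked one, which allows a share of up to 0.103%. The regions were also narrow, with a median length of 331 bp against 825 bp for the strong regions that had such a peak. Just inside the height limit stood regions nearest Sf3b3, Mlkl, Smarca4, Olfr875 and Treh, each with a lower height of 1.0047 as 25 others, and just outside it regions nearest Slc17a2, Arhgap26, Ccdc158, Orai1 and Peak1, each at 0.999.

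**Figure D1:**
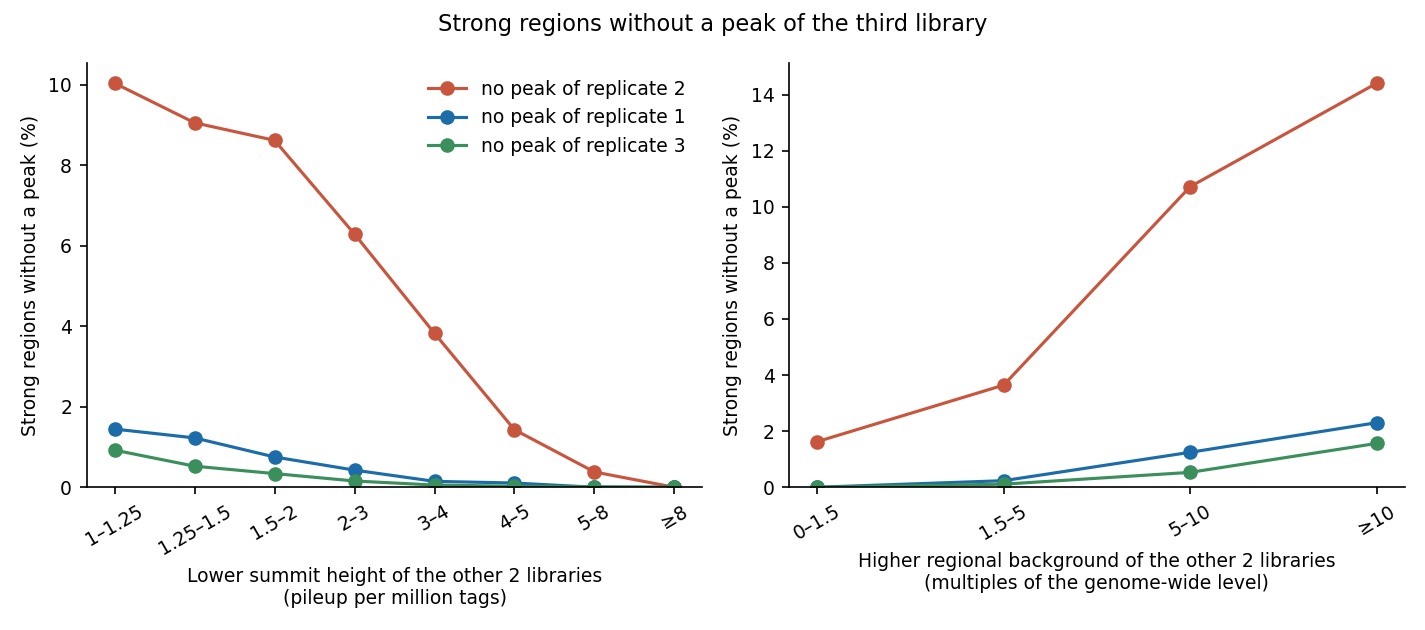
Percentage of strong regions without a peak of the third library (vertical axis), by the lower summit height of the other 2 libraries (left) and by their higher regional background (right), with 1 line for each library that lacks the peak. The line for replicate 2 lies above both others in every class of both panels except heights of 8 or more, where all 3 are at 0, and it runs from 1.62% to 14.4% in the right panel.

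The tallest of the regions lay in and beside genes of varied function. In Errfi1, a feedback inhibitor of the EGF receptor, a region of 958 bp (chr4:150867925-150868882) had a height of 7.53 in replicate 1 and 8.03 in replicate 3, and no peak in the library labelled EV replicate 2. A region in Ltbr, the lymphotoxin beta receptor, had heights of 7.34 and 7.04. These regions were about equally high in both libraries, but they differed in the background around them. The regional background, taken here from the authors' deposited fold and pileup, was 55.2 and 56.7 times the genome-wide level at Errfi1 and 8.35 and 7.81 times at Ltbr. Their deposited folds were accordingly 1.27 and 1.32 at Errfi1 and 8.14 and 8.35 at Ltbr. Among the 15 highest regions, those in G3bp2, a stress granule protein (6.90 and 6.40), Fnip2, a partner of folliculin (5.95 and 7.28), and 1511 bp from Prxl2c (6.20 and 5.92) also had folds above 5 in both libraries, as Ltbr did. Those in Etnk2, an ethanolamine kinase (6.43 and 6.40), and Cyb5a, cytochrome b5 (5.89 and 5.91), had folds between 2 and 4.

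The regions stood in a raised background. This background, as the higher of replicates 1 and 3, had a median of 5.83 times the genome-wide level, against 2.81 for the other strong regions, and their median fold was 3.05 in replicate 1 and 3.04 in replicate 3, against 10.6 in each. The share of strong regions without a peak in the library labelled EV replicate 2 was 1.62% where the background was under 1.5 times the genome level, 3.64% from 1.5 to 5, 10.7% from 5 to 10 and 14.4% at 10 or more. The mirrored shares rose along the same classes, from 0 of 9856 to 2.30% for replicate 1 and from 0 of 9747 to 1.56% for replicate 3. At a background under 1.5, counts of 0 allow shares of up to 0.0304% and 0.0308%, against 240 of 14773 regions for the library labelled EV replicate 2. Background and height are both values that the peak caller used, so their part in the missing calls cannot be told apart from a difference in access.

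To see how far each region stood above what could have been called, the lowest callable height in the library labelled EV replicate 2 was estimated. It is the smallest pileup that passes the least stringent p-value in that list, at the higher of 2 backgrounds, that of the nearest summit of the library within 5 kb and that of replicates 1 and 3 at the region. The estimate takes no account of the length a peak must reach, and the shortest of the regions was 200 bp long. The lower height of the regions was a median of 1.92 times this callable height, against 5.81 times for the other strong regions, and 3123 of the 3220 were at or above it. It was 2 or more times the callable height in 1498 regions (46.5%), 3 or more times in 586 and 5 or more times in 204. The other 97 regions stood below it. The higher background can be that of replicates 1 and 3. Standing below the estimate therefore does not show that no call was possible. In 36210 regions with a peak in that library, the background at the region had about the same median as at the nearest other summit (10th to 90th percentile of the ratio 0.821 to 1.14). Against the background of replicates 1 and 3 its median was 0.902 times, with a wider range of 0.574 to 1.28.

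**Figure D2:**
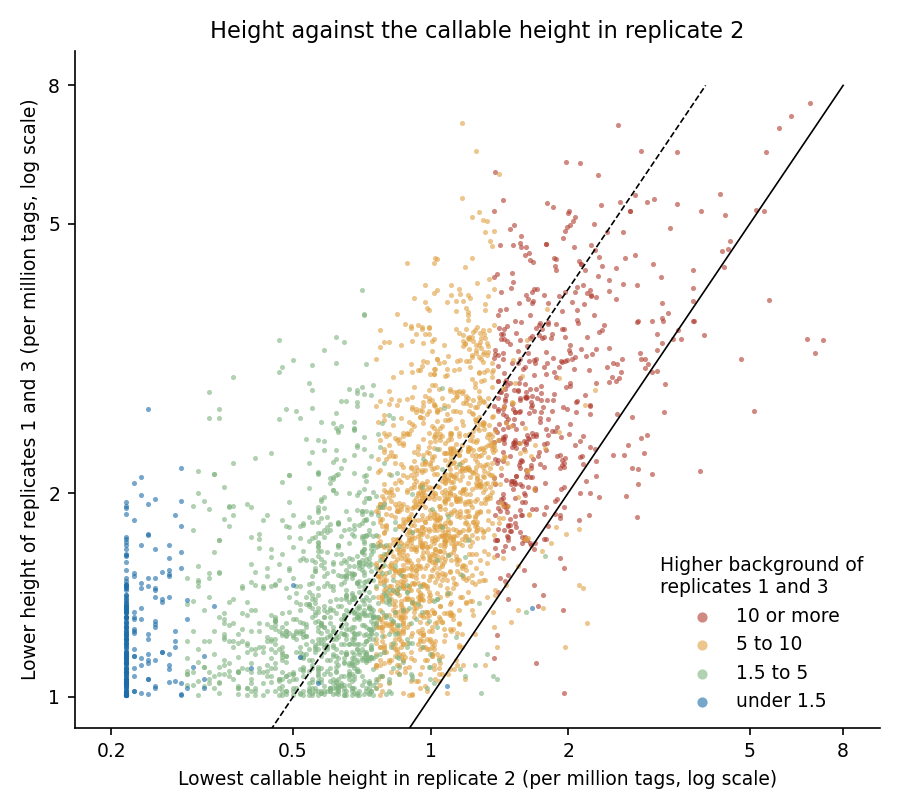
Lower height of replicates 1 and 3 (vertical axis) against the estimated lowest callable height in the library labelled EV replicate 2 (horizontal axis), both per 1e+06 tags on log scales, with 1 point per region coloured by regional background. The solid line marks equality and the dashed line a ratio of 2. Most of the 3220 points lie above the solid line, and the points at a background under 1.5 lie farthest to its upper left.

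The 240 regions at a background under 1.5 are described apart. Their median length was 626 bp, against 331 bp for all the regions and 708 bp for the other strong regions at that background. Fold and callable height both depend on the background, so this cut in part sets both. The folds of the 240 regions had medians of 11.7 and 10.6. Intergenic sites made up 53.8% of them, against 49.1% of the other strong regions at that background, and the nearest peak of the library labelled EV replicate 2 was a median of 7750 bp away, more than 10 kb in 100 of them. Over all 3220 regions this distance had a median of 1288.5 bp. Their lower height was a median of 5.42 times the callable height and reached 5 times in 161. They were spread over all 19 autosomes, with 7 to 21 on each, and 231 genes were nearest to at least 1 of them. Only 8 of the 240 lay within 100 kb of another.

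The region farthest above the callable height, at 11.1 times, lay in the body of Cdc27, a subunit of the anaphase-promoting complex (chr11:104525659-104526350). It had a height of 3.55 in replicate 1, 2.66 in replicate 3, and no peak within 12974 bp in the library labelled EV replicate 2. Its deposited folds were 25.9 and 22.8. The next, 51379 bp from Npl, an enzyme of sialic acid breakdown (chr1:153600633-153601446), had heights of 2.07 and 2.14, with the nearest such peak 28115 bp away. A region 21345 bp from Ugt2b36, a glucuronosyltransferase of a family with closely similar members (chr5:87044139-87044791), had 1.92 and 2.31. In the body of Prkra, a double-stranded RNA binding protein (chr2:76639454-76640153), the heights were 2.31 and 1.90. All 4 were between 8 and 12 times the callable height and had a background at most 1.19 times the genome level in both libraries. These regions were picked after their values were seen.

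**Figure D3:**
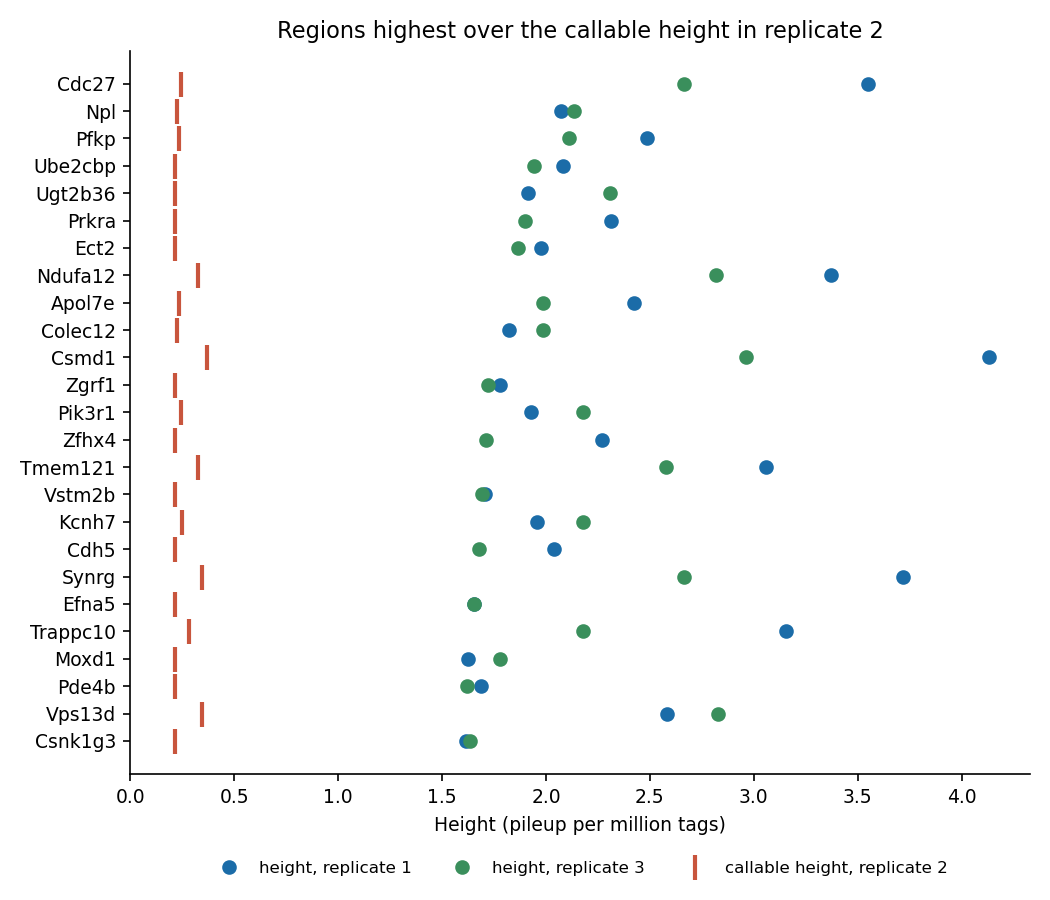
Heights per 1e+06 tags (horizontal axis) of the 25 regions farthest above the callable height, named by their nearest gene, in replicates 1 and 3 (circles), with the callable height in the library labelled EV replicate 2 (bars). Every circle lies well to the right of its bar, as at Cdc27, with 3.55 and 2.66 against 0.241.

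Relative to genes, the regions lay inside gene bodies more often than other strong regions and at gene ends less often. Of the 3220, 285 (8.85%, interval 7.89 to 9.89%) had their summit within 1000 bp of either end of a protein-coding gene, against 20.2% of the 57117 strong regions with a peak in the library labelled EV replicate 2. Gene bodies held 61.0% against 46.0%, and intergenic sequence 30.2% against 33.9%. Within 1000 bp of a start site in the RefSeq promoter table stood 3.32% of the regions and 16.8% of the others. The few regions missing a peak in replicate 1 or 3 had a similar make-up, with 66.3% and 61.5% in gene bodies and 10.9% and 14.0% at gene ends. Every autosome held such regions, from 4.66% of the strong regions on chromosome 1 to 6.13% on chromosome 18.

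The 3220 regions had 2422 nearest genes, of which 1895 had 1 region and 169 had 3 or more. The gene with the most was Ttc39c on chromosome 18, with 13 of its 35 strong regions. Upp2, a uridine phosphorylase, had 9 of 24, Aldh1l1, a folate enzyme, 8 of 21, and Slc27a2, which takes up and activates long-chain fatty acids, 7 of 15. Among genes with 5 were Arg1 (of 10), Ass1 (of 13) and Bhmt (of 13). The counts are those of the genes with most regions and were picked for it, so they carry no test. At 2 or more times the callable height stood 1 of the 13 regions of Ttc39c, 1 of 9 of Upp2 and 2 of 7 of Slc27a2. For Aldh1l1 it was 0 of 8, and for Arg1, Ass1 and Bhmt 0 of 5 each, against 46.5% of all 3220 regions. Low counts here can follow from a raised background in replicates 1 and 3, which enters the callable height.

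Grouped by gene lists, the regions were most frequent near enzymes of amino acid metabolism, followed by the overlapping list of periportal genes and by lipid genes. Among strong regions nearest to the 30 genes for amino acid and urea cycle enzymes, 49 of 264 (18.6%, interval 14.1 to 23.8%) lacked a peak in the library labelled EV replicate 2, against 5.34% of all strong regions. They belonged to 20 of the 30 genes, among them Arg1 and Ass1 of the urea cycle, Mat1a, which makes S-adenosylmethionine (4 of 9), Cth of the transsulfuration pathway (4 of 16) and Tdo2 of tryptophan breakdown (3 of 8). For 45 lipid and cholesterol genes the count was 59 of 430 (13.7%), with Lpin2, a phosphatidate phosphatase (6 of 23), Fasn, fatty acid synthase (3 of 6), and Insig2 (3 of 12). Strong regions of the first list stood in a higher background, with a median of 10.2 times the genome level against 2.94 for all. Of the 49 regions of amino acid enzymes, 5 were 2 or more times the callable height, or 1.89% of the 264. By this count lipid genes had 2.09% and periportal genes 2.44%, so these lists were not above the 2.48% of all strong regions. The highest lists by this count were male-biased (7.59%), acute phase (5.69%) and drug metabolism genes (5.35%). At a background of 5 or more, 21.2% of the strong regions of amino acid enzymes and 20.4% of those of lipid genes lacked a peak. Of all strong regions at that background, 11.5% did. This class has no upper limit, so it does not match the background of a list to that of all strong regions. Over all strong regions the share was 10.7% at 5 to 10 and 14.4% at 10 or more.

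Several other lists of liver genes were above the share of all strong regions. These were 24 of 164 (14.6%) for periportal genes, 19 of 145 (13.1%) for genes with male-biased expression, 16 of 123 (13.01%) for acute phase genes, 37 of 318 (11.6%) for drug metabolism genes and 27 of 272 (9.93%) for secreted proteins of hepatocytes. Glucose metabolism genes had 26 of 272 (9.56%, interval 6.34 to 13.7%) and circadian clock genes 16 of 174 (9.20%, interval 5.35 to 14.5%). Other liver lists were nearer the overall share, with 11 of 137 (8.03%) for pericentral genes, 7 of 124 (5.65%) for bile acid genes and 4 of 78 (5.13%) for genes with female-biased expression. The male-biased share moved from 7.14% at a height limit of 2 to 22.8% when a peak had to cover 50% of a region. The lists share genes with each other (Arg1 and Ass1 are also periportal), and the male-biased one includes major urinary protein genes, a family of near-identical copies whose tags are hard to place. At a background of 5 or more, secreted proteins had 23 of 201 (11.4%), near the 11.5% of all strong regions there. In the same class, periportal (18.9%), male-biased (22.4%), acute phase (18.75%) and drug metabolism genes (13.8%) were above it, with backgrounds not matched. Pericentral (17.3%), circadian clock (16.3%), glucose metabolism (14.7%) and housekeeping genes (13.9%) were above it too. On few regions, so were female-biased (2 of 11), interferon (3 of 17), Sox family (2 of 16) and macrophage genes (1 of 3). The remaining lists were below it, such as hepatocyte transcription factors (10.2%) and bile acid genes (8.45%), apart from amino acid and lipid genes. At a background under 5, drug metabolism genes had 16 of 166 (9.64%) against 2.96% of all strong regions there. Among them were 4 near Aldh1a1, a retinal dehydrogenase, each at 2 or more times the callable height. At an end of Ces1f, a liver carboxylesterase, a region had heights of 3.67 and 4.14, or 5.14 times the callable height. On the male-biased list, Cyp7b1, an oxysterol hydroxylase, had a region of heights 3.92 and 3.31 lying 1459 bp from the gene, at a higher background.

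Lists of genes that other cells of the liver use, and the Sox family, had few regions each, and the intervals of all their shares include the 5.34% of all strong regions. Biliary genes had 4 of 157 (2.55%, interval 0.698 to 6.39%), stellate cell genes 1 of 45 (2.22%), the Sox family 3 of 138 (2.17%), endothelial genes 2 of 84 (2.38%), early response and stress genes 13 of 272 (4.78%) and fetal liver and imprinted genes 0 of 39, which allows up to 7.69%. Of the 4 biliary regions, those at Krt8, Cd24a and 1 of 2 at Onecut1 stood at 0.554, 0.810 and 0.948 times the callable height. The nearest summit in the library labelled EV replicate 2 had a background of 31.4, 12.5 and 14.2 there. In replicate 1 the background at these regions was 18.6, 1.38 and 7.38. The other Onecut1 region stood at 3.96 times the callable height. Macrophage genes had 1 of 15 (6.67%) and lymphocyte genes 2 of 34 (5.88%). For early response genes the side of the overall share depended on the rule: it was 9.56% against 9.42% of all strong regions when a peak had to cover 50% of a region, and 6.87% against 6.63% without replicate 1. Both endothelial entries were intergenic regions 562771 and 615958 bp from Cdh5, the closest gene by position. Housekeeping genes had 6 of 86 (6.98%) and hepatocyte transcription factors 27 of 350 (7.71%), with Hnf4a at 4 of 24 and Cebpa at 1 of 13. The intervals of the housekeeping and transcription factor lists also include 5.34%.

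**Figure D4:**
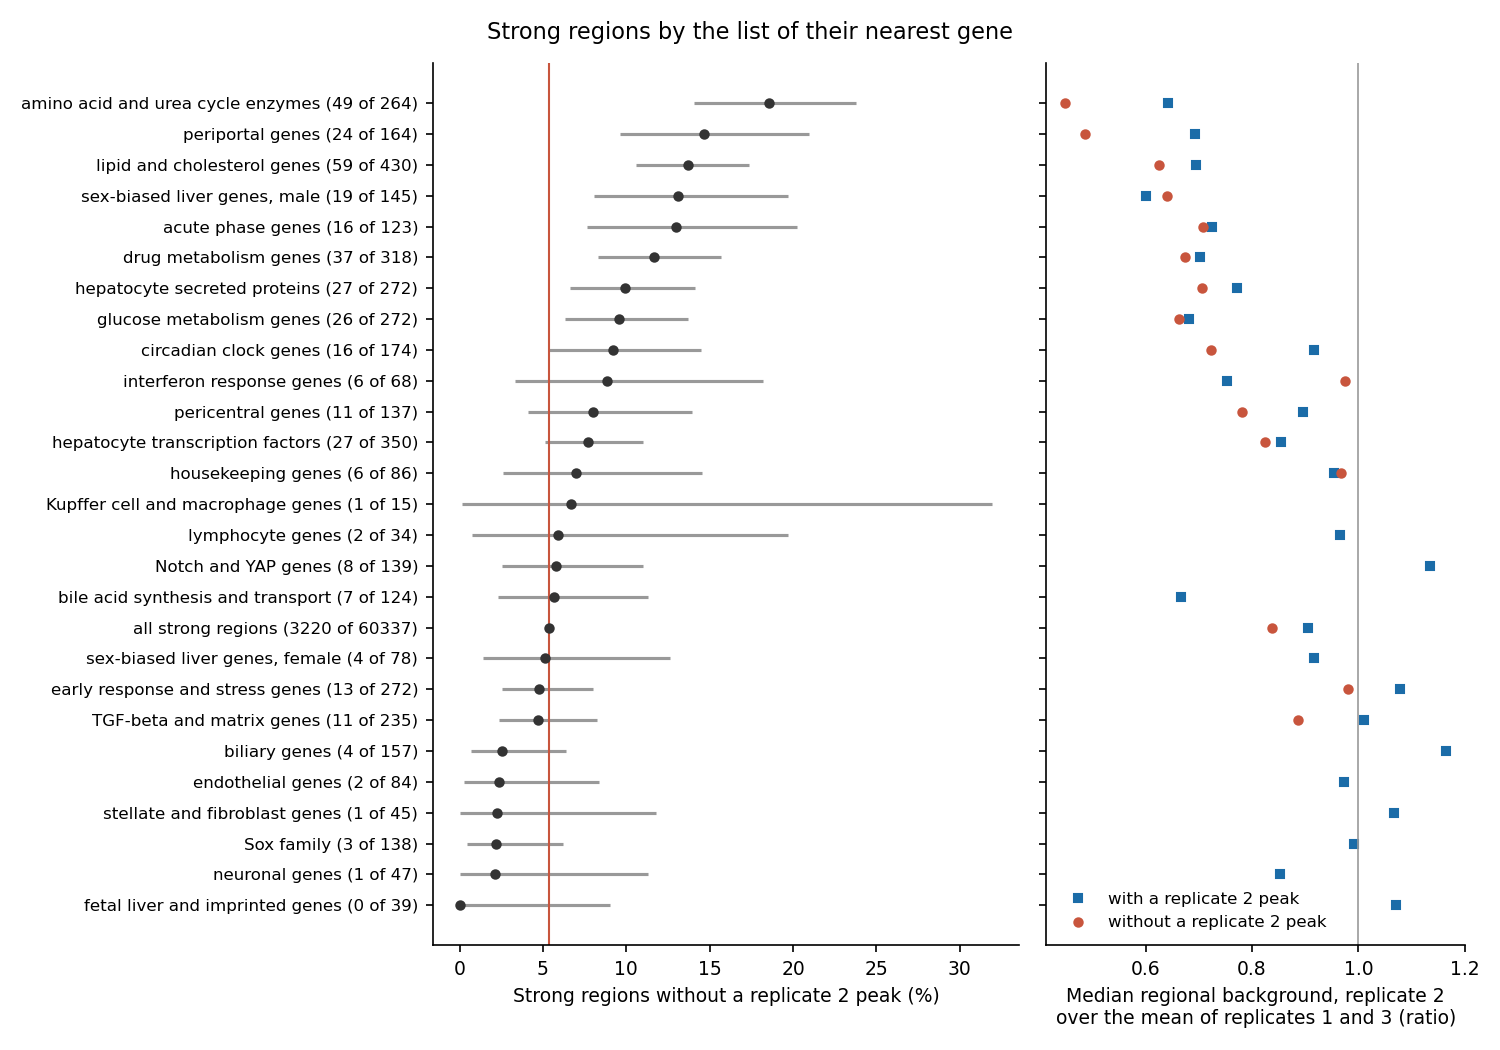
Left, percentage of the strong regions nearest to the genes of each list that lack a peak in the library labelled EV replicate 2 (points, with exact 95% binomial intervals as bars), with a line at 5.34% for all strong regions. Right, median ratio of the regional background in that library to the mean of replicates 1 and 3, for lists with 5 or more such ratios, for regions without (circles) and with (squares) a peak in it. Amino acid enzymes are at the top with 18.6% and have the lowest ratio, 0.449.

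The background itself could be compared where a summit of the library labelled EV replicate 2 lay within 5 kb of a region and had partners within 200 bp in both other libraries. This background is averaged over 10000 bp, so it includes the region itself when that is near. Over 2357 regions it was a median of 0.837 times the mean of replicates 1 and 3, and over 23247 other strong regions 0.905 times. Between replicates 1 and 3 the ratio was 1.01 (10th to 90th percentile 0.899 to 1.13). For regions of amino acid enzymes the median ratio of the library labelled EV replicate 2 to the mean of the others was 0.449. Such a ratio existed for 30 of the 49 regions, and at all 30 the background was lower than in both other libraries. The regions were chosen for lacking a peak in that library. Neighbouring regions can take the same summit, in every set here, so these are not counts of separate sites. The other strong regions of amino acid enzymes, which have a peak in all 3 libraries, had 0.642 (131 regions). Lipid genes had 0.626 and 0.695, and drug metabolism genes 0.673 and 0.702. At other strong regions, male-biased genes had 0.6001, bile acid genes 0.667, early response genes 1.08, biliary genes 1.16 and housekeeping genes 0.953. The background was thus lower in the library labelled EV replicate 2 at called sites of several liver gene lists, bile acid genes among them, and its part in the missing peaks was not tested.

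Arg1 splits arginine into urea and ornithine. Its 5 regions lay next to each other over 9064 bp (chr10:24915530-24924593), with no other strong region between them. From the first to the last along the chromosome, the heights in replicate 1 were 3.22, 3.03, 2.28, 4.37 and 2.91. Those in replicate 3 were 3.66, 3.32, 3.15, 4.07 and 3.01. The regions were within 1.5 times of each other between the 2 libraries, at a background of 17.0 to 24.8 times the genome level, and 0.860 to 1.54 times the callable height. At 6 sites of the Arg1 locus with summits in all 3 libraries, the median background was 16.1, 4.72 and 18.1 times the genome level in replicates 1, 2 and 3. The tallest summit of each library within the locus was 8.46, 4.70 and 8.37.

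In Ass1, which joins citrulline and aspartate, 5 regions lay in the gene body between chr2:31484989-31513775, with heights of 3.33, 3.17, 2.93, 2.26 and 2.43 in replicate 1 and 3.44, 3.15, 3.06, 2.26 and 2.96 in replicate 3. At 12 shared sites the median background was 15.02, 3.98 and 16.1 times the genome level in replicates 1, 2 and 3. The summit at the start of the gene was 7.39, 8.02 and 7.68 in the same order, so it was not lower in the library labelled EV replicate 2. Other tall summits were: the tallest between 5 and 8 kb before the start was 9.504, 5.57 and 9.08, and one just past the end of the gene was 6.42, 1.83 and 6.59. In Slc27a2 the median background at 11 sites was 13.6, 4.70 and 13.4. Its summit at the start of the gene was 10.5, 8.94 and 9.93, and one 2658 bp into the gene in replicate 1, and beside it in the others, was 11.5, 7.53 and 10.7. Of the 7 regions of Slc27a2, a pair upstream of the gene stood apart, with heights of 2.13 and 2.24 at one and 1.53 and 1.81 at the other, a background under 2, and 6.36 and 4.44 times the callable height.

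**Figure D5:**
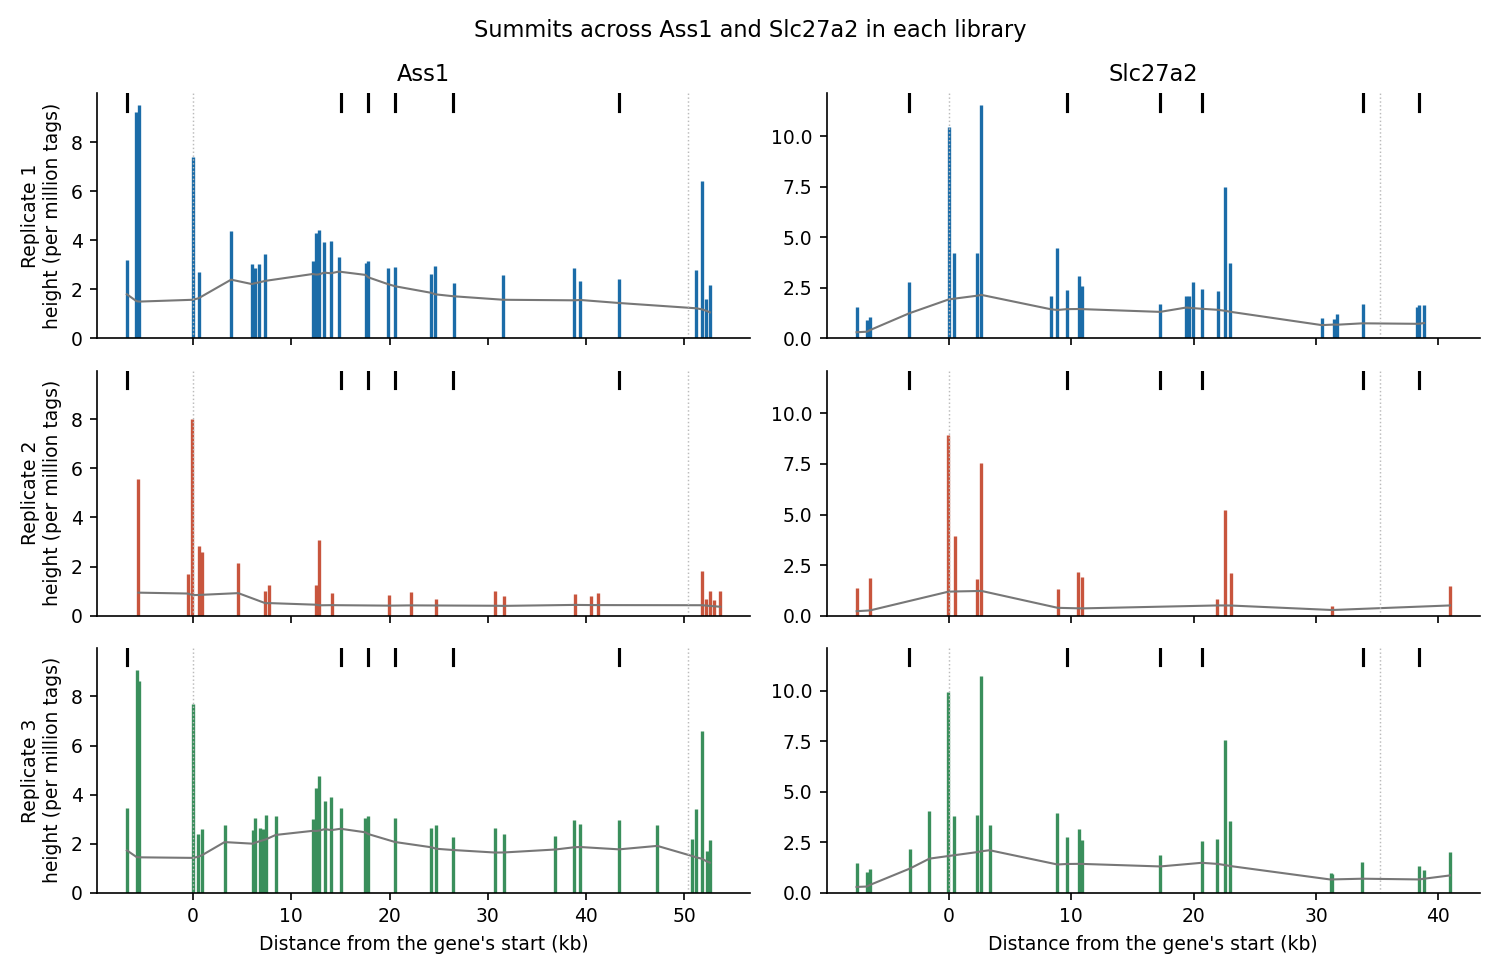
Height per 1e+06 tags (vertical axis) of every summit in each library, as vertical lines, against the distance from the start of Ass1 (left) and Slc27a2 (right) in kb, with 8 kb on either side of the gene, with the regional background drawn through the summits in grey. Black ticks mark the regions without a peak in replicate 2 and dotted lines the gene's ends. The grey line lies lower in replicate 2 than in the others, and the summits at the start of Ass1 are 7.39, 8.02 and 7.68 high.

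Other loci with many regions differed in how far the background moved. In the gene body of Cyp2e1, an ethanol-inducible cytochrome P450, 3 regions had heights of 3.12, 3.59 and 3.44 in replicate 1 and 3.10, 3.96 and 4.27 in replicate 3, and at 3 shared sites the background was 18.0, 2.22 and 19.8. Fasn differed between replicates 1 and 3 too: its 3 regions were 7.14, 8.18 and 7.87 in replicate 1 and 3.22, 3.36 and 3.38 in replicate 3. By the lower height all were under the callable height, which was set there by the background of replicates 1 and 3. At 6 shared sites of Fasn the median background was 35.5, 6.12 and 19.4 in replicates 1, 2 and 3. The 7 neighbouring regions of Upp2 were also higher in one library, at 1.84 to 2.89 in replicate 1 and 2.70 to 5.63 in replicate 3. By contrast, at Errfi1 the median background at 12 sites was 49.7, 41.2 and 50.5, and at Sdc4, a heparan sulfate proteoglycan with 3 neighbouring regions, 25.5, 25.4 and 25.8 at 16 sites. Ell2, an elongation factor, had 6 regions, all 2 or more times the callable height, of which 5 were intergenic and 55358 to 238497 bp from the gene.

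Many of the regions lay near another one. Within 100 kb of another lay 1931 of the 3220 (59.97%, interval 58.3 to 61.7%), in 681 clusters, of which 297 held 3 or more. Of all strong regions 98.1% had a strong neighbour at that distance, and of the 285 and 143 regions missing from replicates 1 and 3, 22.1% and 16.1% had another of their own set there. These sets differ in size, and a larger set lies closer together for that alone. The largest cluster held 16 of 44 strong regions over 219607 bp around Ttc39c and Osbpl1a, with lower heights of 1.15 to 6.15. The next held 13 of 71 around Fasn and Ccdc57, and the third 12 of 44 around Klf15 and Aldh1l1. Clusters of 9 lay at Slc27a2 and Hdc, and between Rex1bd and Ifi30.

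Strong regions next to each other seldom shared the absence, which was found at only 5.34% of all strong regions. After a region without a peak in the library labelled EV replicate 2, the next strong region along the chromosome also lacked one in 7.61% of 3219 cases, against 5.21% of 57099 cases after a region with one. Where the next strong region was within 5 kb, the shares were 9.19% and 10.1%, and where it was farther, 4.21% and 2.71%. Most regions stood between strong regions that kept their peak: 2762 stood alone, 188 runs held 2 and 22 held 3. At so low a share solitary regions are the usual case, and the number that the share alone would give was not computed. Longer runs included those of Arg1 (5) and Upp2 (7). The 7 regions of the Upp2 run were a median of 0.780 times the callable height, and at most 1.03 times.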

How the data were processed

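ATAC-seq was described in 3 mouse hepatocyte libraries with 1 set of labels, so no comparison between groups, no test across replicates and no p-value was possible. The submitters' processing notes list Bowtie2, Picard, deepTools, MACS2 and mm10, with no settings. Per the file headers, MACS 2.2.7.1 called peaks in every library alone, with no control, tags extended to 200 bp and a q cutoff of 0.05. The authors deposited the pileup signal of every summit, unscaled for depth. The fold is a ratio of pileup to background and, like the −log10 p and −log10 q values, was deposited by the authors and is each peak's own value. An absent peak shows only that no call was made: the files hold no pileup outside peaks.

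Summits of 1 peak were joined, and overlap means 1 bp or more. Height is the pileup divided by the header's tags (96066404 to 117450440) and multiplied by 1e+06. Regional background was solved from pileup and fold, as a multiple of the genome-wide level for an effective genome of 1.87e+09 bases. Gene positions came from RefSeq GRCm38.p6, the coordinates of mm10, without strand, so both gene ends were used. The RefSeq promoter table held no window on chromosome 18. Each summit got its nearest protein-coding gene, by distance to the gene body. Of 671 list entries 669 matched, C5 as Hc; H19 and Meg3 did not. Intervals are exact Clopper-Pearson at 95%. Named regions were the 15 highest, up to 4 for each list, those of the 5 largest clusters and 5 on each side of the height limit. Genes with most regions, the regions farthest above the callable height and the loci compared by background were picked after their values were seen. The regions and lists were chosen with earlier results of these data known. The selection, overlap, cluster and background steps were checked on simulated data with planted regions. Python 3.11.15, pandas 2.3.3, NumPy 2.4.6 and SciPy 1.17.1 were used. Some named genes are not reported here.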

Additional observations from a re-analysis of the deposited data

Results flagged for a closer look

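Chromosome X was outside the regions described, which lie on chromosomes 1 to 19. There, 37 of 990 regions that were strong in replicates 1 and 3 (3.74%) had no peak in the library labelled EV replicate 2, and on chromosome Y 0 of 15, which allows up to 20%. This was listed because a signal was present in data that the description did not use. There are no control samples to set it against.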

How the results depend on the processing

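The number of regions, 3220, stayed within 1.5 times under a height limit of 0.75, the upper 50% of each list by pileup, −log10 q of 10 or more, and a gap of 500 bp to the nearest peak of the library labelled EV replicate 2. It was 1934 at a limit of 1.5, 1130 at 2, and 5685 when only a peak over 50% or more of a region counted as present. The share at gene ends (8.85%) was 7.75% at a limit of 0.75, 7.05% with the 500 bp gap, 7.25% with the 50% rule, 3.73% and 27.7% for windows of 500 and 2500 bp, and 13.7% with all gene types. The share within 100 kb of another (59.97%) was 64.8%, 51.2% and 42.0% at limits of 0.75, 1.5 and 2, 53.4% in the upper 50%, 51.8% with the gap, 67.7% with the 50% rule, and 47.6% and 87.6% for links of 50 and 500 kb. Without replicate 1 or 3 the number was 4269 to 4383, the gene-end share 8.62% to 9.04% and the linked share 67.3% to 67.8%. Alternatives chosen after seeing the data gave 240 regions, 2.08% at gene ends and 3.33% linked at a background under 1.5; 1498, 6.07% and 33.0% at 2 or more times the callable height; and 3.32% within 1000 bp of a start site. For amino acid enzymes the share without a peak was 14.7% to 25.2% over the alternatives, for male-biased genes 7.14% to 22.8%, for early response genes 2.94% to 9.56% and for biliary genes 1.91% to 3.82%, while that of all strong regions ran from 3.00% to 9.42%. The cause of these moves was not tested. A peak list gives no depth outside peaks, so a lower signal and no signal cannot be told apart. No paired analysis was possible because there was only 1 group of samples.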

Other observations

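Within 1000 bp of one of the regions lay 8 microRNA hairpins of the RefSeq table. The regions overlapped Mir7048, nearest Dedd2 (heights 4.29 and 3.96) and Mir1936, nearest Itpk1 (1.66 and 1.46). A region 191 bp from Mir148b, near Copz1, had 1.34 and 1.67. At any height, the longest stretches of neighbouring regions shared by replicates 1 and 3 and without a peak in the library labelled EV replicate 2 held 7 regions. They lay in Upp2, in Gfra1, in Acacb, an acetyl-CoA carboxylase, and near Fhit, and those outside Upp2 held no strong region.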
